A study of Mus musculus with 2 samples.

Results

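The 10 genes described here encode the laminin chains, nidogens and perlecan that were followed in the ovary of newborn mice. They are the laminin alpha chains Lama1, Lama2, Lama4 and Lama5, the beta chains Lamb1 and Lamb2, the gamma chain Lamc1, the nidogens Nid1 and Nid2, and Hspg2, which encodes perlecan. They were taken by name from the 31057 genes listed, and all 10 had enough counts to be tested. The data are 2 single-cell RNA libraries of whole ovary from female mice of the CD1 strain background at postnatal day 2, without treatment. Each library is a biological replicate that pooled the ovaries of several pups of a single female, so pups cannot be told apart, and cells of the same library are not replicates. The ovaries were dissociated with enzymes and captured in droplets, where the 3′ ends of transcripts receive a molecular barcode (UMI) by which copies of a molecule made later are counted as 1.

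A laminin is a trimer of an alpha, a beta and a gamma chain, and laminin trimers form the sheet on which a basement membrane is built. Nidogens link laminin to the type IV collagen network, and perlecan is a large proteoglycan whose heparan sulfate chains bind growth factors. In the ovary, basement membranes enclose the follicles, lie under the surface mesothelium and surround the vessels, and the alpha chain largely determines which receptors a laminin engages.

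After removal of poor cells and likely doublets, replicate 1 held 3642 cells and replicate 2 held 4371. The libraries had 54471790 and 59074480 UMIs in all, and 21 cell barcodes occurred in both. Cells were assigned by marker genes, without use of the 10 genes, to granulosa-like (Foxl2, Fst, Wnt6; 1574 and 541 cells in replicates 1 and 2), mesothelial-like (Upk3b; 152 and 226), interstitial-like (Col1a2, Dcn; 1353 and 2391), perivascular-like (Rgs5; 42 and 44), endothelial-like (Cdh5; 59 and 23) and germ-like cells (Ddx4, Dazl, Ooep; 227 and 637). Further markers of each type were not counted in the assignment, but were looked at when its limits were placed. They were detected in full in the type they belong to. Detection alone does not set a type apart, since all 5 germ markers were also detected in granulosa-like cells, at a lower level. Of the cells of a type, 97.9% to 100% fell into a cluster of the same name, but clusters were named by the same marker genes. In the other direction, from 73.85% (mesothelial) to 100% (a germ cluster) of the cells of a cluster had the assignment of that name. Among all cells kept, 668 lay close to the limit that defines granulosa-like cells, on either side. Of the 2115 granulosa-like cells, 119 lay just above it. UMIs were summed per type and library, and levels are given per 1000000 UMIs of the type (CPM), for each library or as the mean ± SD (n = 2). In the smallest types a CPM rests on few molecules, and the 10 genes together had 164 and 154 UMIs in perivascular-like cells against 8121 and 12857 in interstitial-like cells.

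**Figure D1:**
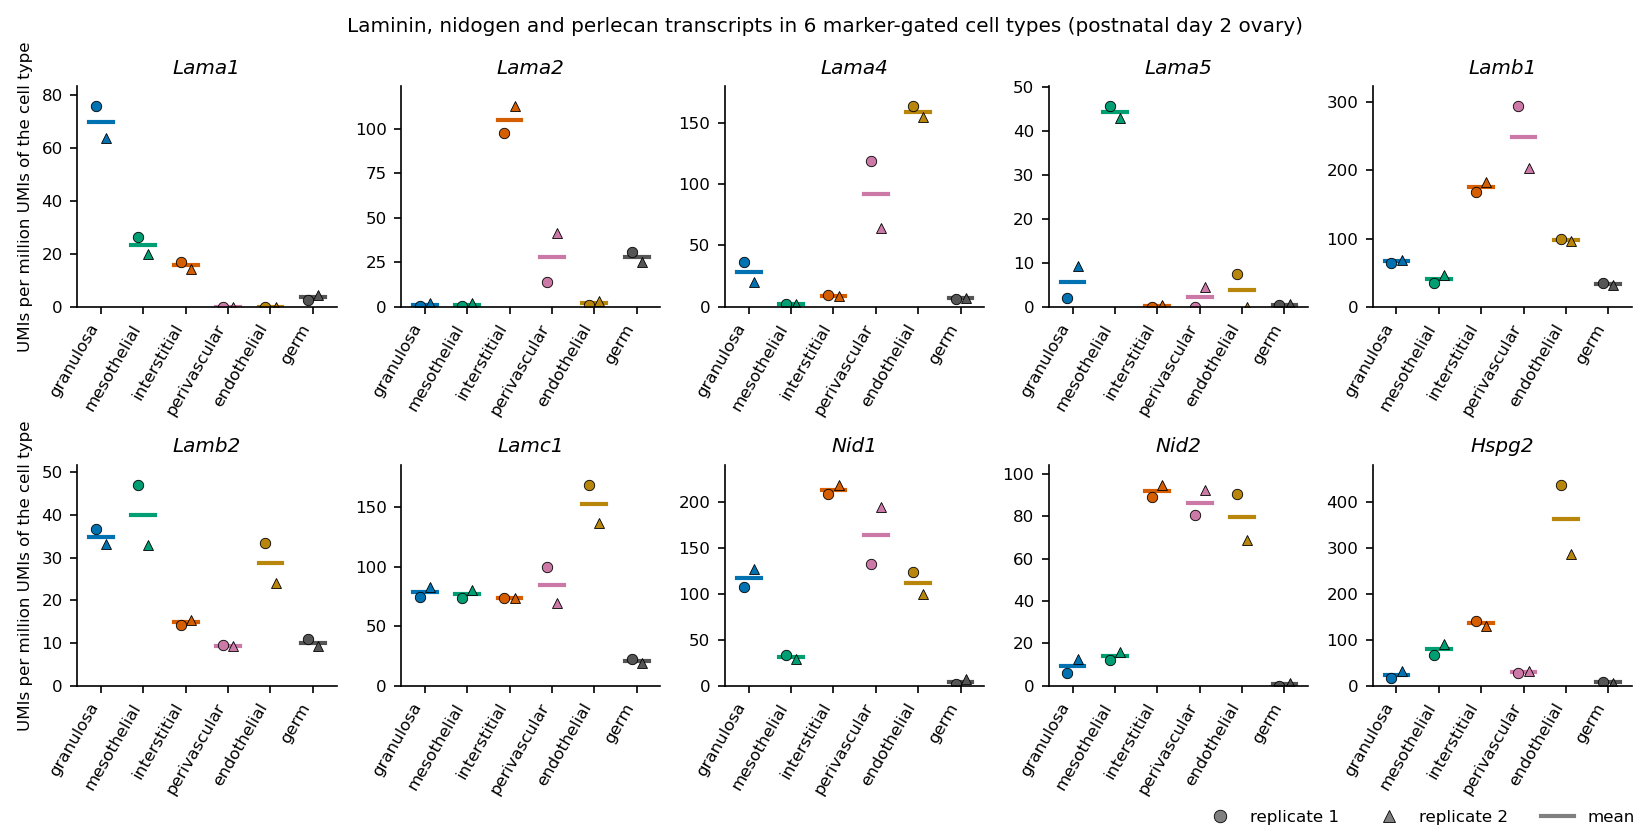
Level of each of the 10 genes (y axis, CPM, scale set per gene) in the 6 cell types (x axis). Circles are replicate 1, triangles replicate 2 and lines their mean. Lama1 is highest in granulosa-like, Lama2 in interstitial-like, Lama4 in endothelial-like and Lama5 in mesothelial-like cells.

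Each of the alpha chains was highest in a different cell type. Lama1, the chain of the earliest embryonic basement membranes, stood at 76.0 and 64.0 CPM in granulosa-like cells of replicates 1 and 2, at 26.4 and 20.1 in mesothelial-like cells and at 17.0 and 14.4 in interstitial-like cells. It stood at 2.54 and 4.53 CPM in germ-like cells, and had 0 UMIs in the perivascular-like and endothelial-like cells of both libraries. The libraries of the granulosa-like cells lay above those of every other type. Mesothelial-like cells also carried granulosa markers: the 5 listed, all detected, had 595 and 598 CPM there against 2014 and 2079 in granulosa-like cells. Any cells that passed the limits of both types were kept as mesothelial-like. If each type's level of Lama1 is scaled by the share of its marker list found in mesothelial-like cells, the other types would give 24.1 and 20.5 CPM, close to the level measured. Such lists also hold genes that several types express, since the same scaling would give 9.99 and 17.0 CPM of Lama2 in mesothelial-like cells, where 0.362 and 2.20 were measured. The part of these markers in the level of Lama1 was not tested. The log2 difference between granulosa-like and mesothelial-like cells was 1.52 (standard error 0.28, adjusted p = 0.00386), whereas mesothelial-like and interstitial-like cells differed by 0.58 (adjusted p = 0.157). Against the limit that 3 UMIs over both libraries set for a count of 0, Lama1 was at least 26.1-fold higher in granulosa-like than in endothelial-like cells and at least 9.13-fold higher than in perivascular-like cells.

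Lama2, the chain of merosin laminins in muscle and nerve, stood at 97.5 and 113 CPM in interstitial-like cells. These cells also carried 4 smooth muscle genes, at 847 and 341 CPM, and 4 neural genes, 1 of them at 0, at 218 and 470 CPM. The part of such cells in the level of Lama2 was not tested. Lama2 had its next highest levels in other types. It was next in germ-like cells, at 30.9 and 25.1 CPM, and in perivascular-like cells, at 14.2 and 41.5 CPM from 3 and 9 UMIs, while granulosa-like, mesothelial-like and endothelial-like cells ranged from 0.362 to 3.43. Interstitial-like cells exceeded germ-like cells by 1.88 on the log2 scale (adjusted p = 1.33e-04) and perivascular-like cells by 2.09 (adjusted p = 0.0414). Germ-like and perivascular-like cells were not separated by the test (log2 difference 0.21, adjusted p = 0.815).

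Lama4, the chain of vessel laminins, stood at 164 and 154 CPM in endothelial-like cells and at 118 and 64.6 in perivascular-like cells, which were not separated (log2 difference 0.96, adjusted p = 0.138). In granulosa-like cells it stood at 36.2 and 19.9 CPM, and perivascular-like cells were higher by 1.56 (adjusted p = 0.0136). Interstitial-like cells followed at 9.29 and 8.87 and germ-like cells at 6.65 and 6.97. Mesothelial-like cells were the lowest, at 2.17 and 1.92 CPM from 6 and 7 UMIs.

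Lama5, the chain of many adult epithelial and endothelial laminins, stood at 45.6 and 42.9 CPM in mesothelial-like cells. In granulosa-like cells the libraries differed, at 1.95 CPM in replicate 1 and 9.35 in replicate 2, and mesothelial-like cells exceeded them by 3.19 on the log2 scale (standard error 0.59, adjusted p = 0.00240). Mesothelial markers differed between the libraries in the same direction: the 7 listed had 134 and 415 CPM in granulosa-like cells, all 7 detected, against 2557 and 2315 CPM in mesothelial-like cells. Scaled by the share of each marker list, the other types would give 2.41 and 7.73 CPM of Lama5, against the 1.95 and 9.35 measured, and their part in this level was not tested. Interstitial-like cells held 0 and 5 UMIs of Lama5 among 1226 and 2060 alpha chain UMIs. Endothelial-like cells held 7 UMIs in replicate 1 and 0 in replicate 2.

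Upstream sequences of 6 of the 10 genes were available from RefSeq (GRCm38.p6): Lama2, Lama5, Lamb1, Lamb2, Nid1 and Hspg2. The 250 bases before the start of Lama2 and of Lama5 are shown, since these chains were highest in interstitial-like and mesothelial-like cells, respectively, and each was at most 2.20 and 0.331 CPM in the other type. The RefSeq start of Lama2 lies inside the span that GENCODE gives the gene. Capitals mark the letters GGGCGG and their reverse complement CCGCCC, and the gene's own strand is given.
Lama2, chr10:27616943-27617192, minus strand: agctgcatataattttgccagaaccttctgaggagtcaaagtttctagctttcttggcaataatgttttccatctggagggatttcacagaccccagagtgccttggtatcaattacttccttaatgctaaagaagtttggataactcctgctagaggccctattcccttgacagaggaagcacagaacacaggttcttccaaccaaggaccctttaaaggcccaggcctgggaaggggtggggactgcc
Lama5, chr2:180225860-180226109, minus strand: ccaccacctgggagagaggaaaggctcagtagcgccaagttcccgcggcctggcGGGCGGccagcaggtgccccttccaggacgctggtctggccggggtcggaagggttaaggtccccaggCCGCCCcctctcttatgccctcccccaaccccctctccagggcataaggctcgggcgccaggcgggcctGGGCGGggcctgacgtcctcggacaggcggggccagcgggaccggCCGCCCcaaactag
The Lama2 window holds 0 CpG dinucleotides and 0 copies of the marked letters, and the Lama5 window holds 19 and 4. Over 32851 promoter windows of the same length the median number of CpG dinucleotides was 6, with quartiles of 2 and 16, and 32.7% held GGGCGG on either strand. The Hspg2 window, with 20 CpG dinucleotides and 5 copies, lies at the top of the 6 genes, and the Lamb2 window holds 3 and 0. The letters TATAAA, searched on both strands and present in 12.4% of all windows, were not in any of the 6.

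In Lamb1 and Lamb2, the types with the highest level differed. Lamb1, the beta chain of most embryonic laminins, stood at 294 and 203 CPM in perivascular-like cells and at 169 and 182 in interstitial-like cells, which were not separated (log2 difference 0.32, adjusted p = 0.438). Endothelial-like cells stood at 99.0 and 95.9 CPM, below interstitial-like cells by 0.86 (adjusted p = 0.00881), and granulosa-like cells at 64.7 and 69.1. Mesothelial-like and germ-like cells were the lowest, at 40.7 ± 7.37 and 32.8 ± 2.04 CPM. Lamb2, the beta chain of mature glomerular and synaptic laminins, stood at 47.0 and 33.0 CPM in mesothelial-like, 36.6 and 33.2 in granulosa-like and 33.3 and 24.0 in endothelial-like cells, whose neighbours in this order were not separated (adjusted p = 0.404 and 0.742). Interstitial-like cells had 14.3 and 15.5 CPM, below endothelial-like cells by 1.02 (adjusted p = 0.0185), and perivascular-like cells had 9.48 and 9.23 from 2 UMIs in each library.

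Lamc1, the gamma chain shared by most laminins, varied least of the 10 genes in its mean among the somatic cell types. It stood at 169 and 137 CPM in endothelial-like cells, while granulosa-like, mesothelial-like, interstitial-like and perivascular-like cells had means from 73.8 to 84.4 CPM. Among these 4 types, the 95% intervals of the log2 differences, not adjusted for the number of pairs, reached from -0.61 to 0.68 at the widest. Endothelial-like cells exceeded perivascular-like cells by 1.05 (adjusted p = 0.0217), and germ-like cells had 22.3 and 19.5 CPM, below interstitial-like cells by 1.78 (adjusted p = 1.74e-06).

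Because a UMI counts a molecule and not its length, the chains of a group were also set against each other within a cell type, as shares of counted 3′ ends with exact 95% binomial intervals that cover counting error only. Lama1 made up 66.3% (64.3% to 68.3%) and 67.2% (63.5% to 70.7%) of the alpha chain UMIs in granulosa-like cells. Lama5 made up 61.2% (54.1% to 67.9%) and 63.9% (57.6% to 70.0%) in mesothelial-like cells, where Lama1 supplied most of the rest. Lama2 made up 78.8% and 82.7% in interstitial-like cells, and Lama4 95% and 97.8% in endothelial-like cells. Perivascular-like cells had too few alpha chain UMIs, 28 and 24, for a firm share, and Lama4 made up 89.3% (71.8% to 97.7%) and 58.3% (36.6% to 77.9%). Lamb1 was 92.2% of the beta chain UMIs in the interstitial-like cells of both libraries, and 43.0% (36.5% to 49.7%) and 58.2% (52.2% to 64.0%) in mesothelial-like cells, the type with the largest share of Lamb2. Scaled by the share of each marker list, the other types would give mesothelial-like cells 42.0 and 51.1 CPM of Lamb1, against 35.5 and 45.9 measured. For Lamb2 they would give 14.2 and 13.0, against 47.0 and 33.0. The part of other cells in these shares was not tested.

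**Figure D2:**
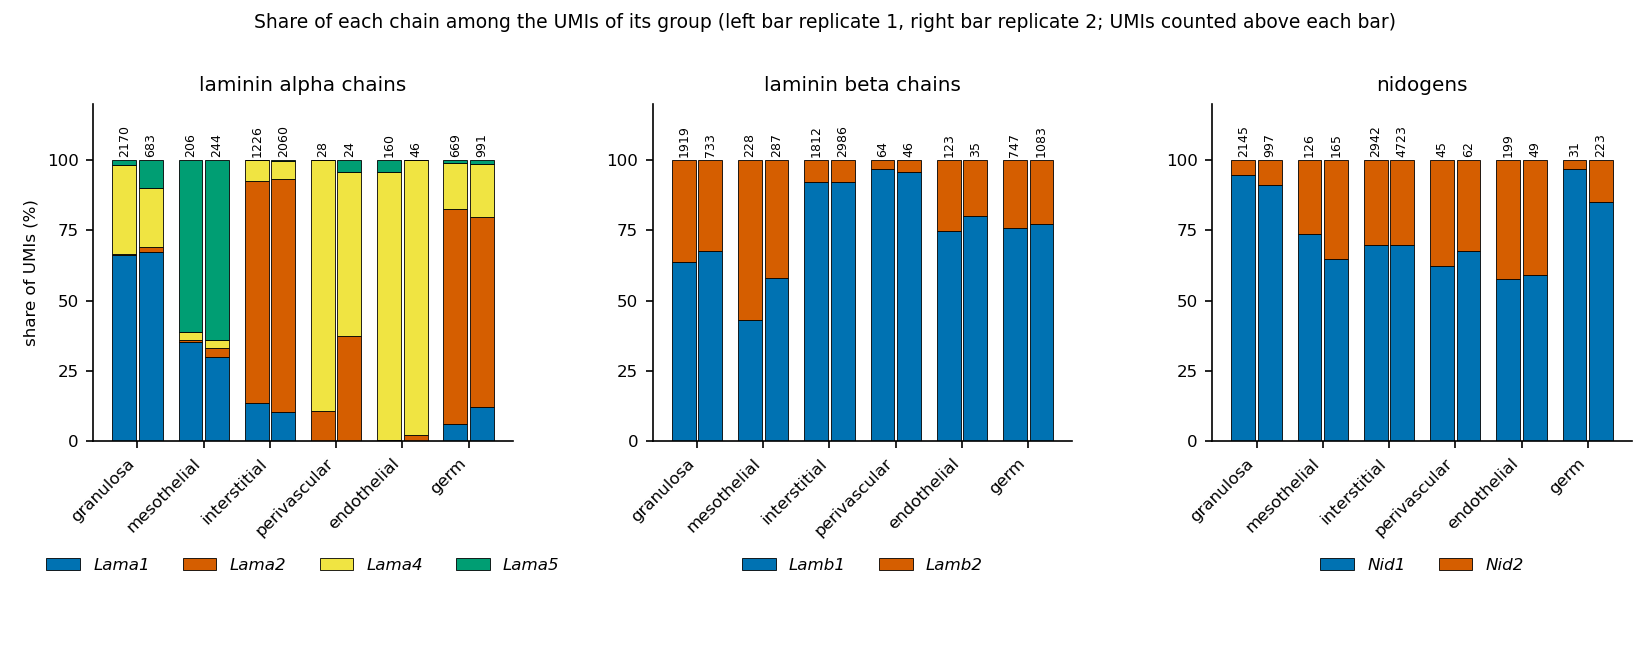
Share of each chain (y axis, % of the UMIs of its group) among laminin alpha chains, laminin beta chains and nidogens in the 6 cell types, left bar replicate 1 and right bar replicate 2, with the number of UMIs above each bar. Lama1 holds 66.3% and 67.2% of the alpha chain UMIs in granulosa-like cells, and Lama4 holds 95% and 97.8% in endothelial-like cells.

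Both nidogens had their highest mean in interstitial-like cells. Nid1 stood at 208 and 218 CPM in interstitial-like, 133 and 194 in perivascular-like, 107 and 127 in granulosa-like and 124 and 99.4 in endothelial-like cells, and no neighbours in this order were separated (adjusted p from 0.583 to 1). Mesothelial-like cells followed at 33.7 and 29.4 CPM, below endothelial-like cells by 1.82 (adjusted p = 0.0150), and germ-like cells at 1.81 and 7.11. By the scaling of marker lists the other types would give 59.5 and 72.6 CPM of Nid1 in mesothelial-like cells, and their part was not tested. Nid2 stood at 92.0 ± 3.90 CPM in interstitial-like, 86.4 ± 8.29 in perivascular-like and 79.5 ± 15.4 in endothelial-like cells. In granulosa-like cells it stood at 5.81 and 12.4 CPM, 3.47 below interstitial-like cells on the log2 scale (adjusted p = 8.44e-05), against a Nid1 difference between the same types of 0.92 (adjusted p = 0.0760). Nid1 held 94.9% and 91.1% of the nidogen UMIs in granulosa-like cells and 57.8% and 59.2% in endothelial-like cells.

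Hspg2 stood at 438 and 288 CPM in endothelial-like cells and at 142 and 131 in interstitial-like cells, lower by 1.42 on the log2 scale (standard error 0.30, adjusted p = 0.00403). Mesothelial-like cells had 68.0 and 92.1 CPM, perivascular-like cells 28.4 and 32.3 from 6 and 7 UMIs, and granulosa-like cells 16.9 and 32.1. Perivascular-like cells, which were not separated from endothelial-like cells in Lama4, were 3.77 below them in Hspg2 (adjusted p = 4.02e-04). A UMI of Hspg2 was found in 96.6% of the 59 and 87.0% of the 23 endothelial-like cells, and in 59.3% and 47.8% after each cell was thinned to 2000 UMIs, against 2.36% and 5.02% of granulosa-like cells so thinned.

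Each type was then compared with the mean of the other 5, weighted equally, and a gene was called at a more than 2-fold difference with an adjusted p under 0.05 over the 14424 genes tested. In granulosa-like cells 2 of the 10 genes were called higher, Lama1 and Nid1, against 15.5% of all genes, and 3 lower, Lama2, Nid2 and Hspg2, against 5.17%. Nid1 lay at the limit, higher by 1.01 on the log2 scale (adjusted p = 0.0172), and between 0.70 and 0.99 in the 6 alternatives that lost the call. In mesothelial-like cells Lama1, Lama5 and Lamb2 were called higher (12.8% of all genes) and Lama2, Lama4, Lamb1 and Nid1 lower (3.88%). The fold changes of Lamb2 and Lamb1 were 1.27 and -1.20 (log2). The call of Lama1 depends on the reference, since Lama1 was at 0.04 (adjusted p = 0.938) against the sum of all other cells. It was also lost after thinning (adjusted p = 0.0528). The equally weighted reference holds types at 0, whereas the sum weighs each type by its UMIs. With looser limits for the cell types, Nid1 was at -0.87 there and Lama2 had an adjusted p of 0.0686.

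In interstitial-like cells 6 of the 10 were called higher, Lama1, Lama2, Lamb1, Nid1, Nid2 and Hspg2, against 14.5% of all genes. Their fold changes included 1.29 for Lamb1, 2.11 for Nid1, 2.69 for Nid2 and 1.69 for Hspg2 (log2, adjusted p from 1.11e-05 to 8.05e-05). The call of Lama1 depends on the reference here too, since Lama1 lay at -0.65 when the reference was the sum of all other cells. Only Lama4 was called lower in interstitial-like cells (log2 -1.27, adjusted p = 0.00186, against 3.91% of all genes), while Lama5, with 5 UMIs in all, had an adjusted p of 0.0522. The call of Lama4 was lost against the sum of all other cells (log2 -0.75, adjusted p = 0.1365) and after thinning (adjusted p = 0.114). With the library as a block the adjusted p of Lama5 was 0.0292. Perivascular-like cells had 4 genes called higher, Lama4 (2.51), Lamb1 (1.68), Nid1 (1.44) and Nid2 (2.36), against 5.48%. The call of Nid1 there (adjusted p = 0.0480) was lost with stricter limits (adjusted p = 0.142), with clusters (adjusted p = 0.0785) and against the sum of all other cells (log2 0.94). Endothelial-like cells also had 4, Lama4 (3.66), Nid2 (2.48), Lamc1 (1.39) and Hspg2 (3.40), against 9.73%. By edgeR 0 genes were called lower in either, with 2 and 1 at an unadjusted p under 0.05 and 0 and 1 by DESeq2 (2.36% and 5.28% of all genes). With the library as a block Nid1 was also called in endothelial-like cells (log2 1.09, adjusted p = 0.0320).

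Perivascular-like cells also carried markers of other cells, and any cells that passed both the interstitial and perivascular limits were kept as perivascular-like. The 6 interstitial markers had 1246 and 1504 CPM in perivascular-like cells, with 1 of the 6 at 0 in replicate 1, against 6385 and 5425 in interstitial-like cells. The 4 smooth muscle genes had 1341 and 2441 CPM, against 847 and 341 in interstitial-like cells. The 8 endothelial markers had 351 and 249 CPM, with 4 of the 8 at 0 in each library. Scaled by the share of each type's whole marker list, the other types would give 50.4 and 70.7 CPM of Nid1, against 133 and 194 measured, and 24.3 and 30.6 CPM of Nid2, against 80.6 and 92.3. For Lama2 the same scaling would give 19.2 and 31.8 CPM, against 14.2 and 41.5 measured, and for Hspg2 60.9 and 53.9, against 28.4 and 32.3. The part of other cells in these levels was not tested.

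Granulosa-like and mesothelial-like cells differed in 6 of the 10 genes (20.5% of all genes) at an adjusted p under 0.05 in either direction. Lama1, Lama4, Lamb1 and Nid1 were higher in granulosa-like cells, by 1.52, 3.72, 0.63 and 1.82 on the log2 scale, and Lama5 and Hspg2 were higher in mesothelial-like cells, by 3.19 and 1.82. For Lamc1 the difference was -0.05 with a 95% interval from -0.47 to 0.37. Interstitial-like and perivascular-like cells differed in 3 (6.82% of all genes), Lama2 and Hspg2 being higher in interstitial-like and Lama4 in perivascular-like cells. Perivascular-like and endothelial-like cells also differed in 3 (8.49%), with Lamb1 higher in perivascular-like and Lamc1 and Hspg2 higher in endothelial-like cells.

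Of the other pairs, granulosa-like cells differed from interstitial-like cells in 8 genes (40.3% of all genes), with Lama1, Lama4, Lama5 and Lamb2 higher and Lama2, Lamb1, Nid2 and Hspg2 lower. They differed from perivascular-like cells in 6 (14.4%) and from endothelial-like cells in 5 (25.5%), where Lama1 was higher and Lama4, Lamc1, Nid2 and Hspg2 were lower. Mesothelial-like cells differed from interstitial-like cells in 7 (33.5%), from perivascular-like cells in 7 (13.2%) and from endothelial-like cells in 8 (21.5%), and Nid1 and Nid2 were lower in them in each of these pairs. Interstitial-like and endothelial-like cells differed in 7 (24.2%), Lama1, Lama2 and Lamb1 being higher in interstitial-like cells. Germ-like cells differed from granulosa-like cells in all 10 (74.9%), from mesothelial-like cells in 9 (69.4%), from interstitial-like cells in 8 (73.9%), from perivascular-like cells in 6 (43.1%) and from endothelial-like cells in 9 (55.2%), and Lamc1, Nid1, Nid2 and Hspg2 were lower in germ-like cells in each of these pairs.

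In germ-like cells 7 of the 10 genes were called lower, against 19.6% of all genes, and Lama2 was called higher, against 31.8%. The 10 genes together made up 118 and 112 CPM there, compared with 820 and 851 in interstitial-like cells. Lamb1, Lamc1, Lama4, Lamb2, Hspg2, Nid1 and Nid2 ranged in log2 fold change from -1.09 for Lamb2 to -5.53 for Nid2 (adjusted p from 2.08e-07 to 7.41e-04). With the library as a block Lama5 was also called lower (log2 -2.78, adjusted p = 0.0440), from 7 and 15 UMIs. Lama2 rested on 510 and 669 UMIs, and lay at 31.6% and 22.2% of its level in interstitial-like cells. These levels are shares of a type's UMIs and not counts per cell. Germ-like cells held 2.25 and 1.05 UMIs of Lama2 per cell, against 0.714 and 0.712 in interstitial-like cells. Lamb1, Lamc1, Lama4 and Lamb2, called lower as shares, also had more UMIs per cell in germ-like than in interstitial-like cells of both libraries. Lamb1 held 2.49 and 1.31 per germ-like cell, against 1.23 and 1.15. Nid1, Nid2 and Hspg2 had fewer per cell, for Nid1 0.132 and 0.298 against 1.52 and 1.38. The direction per cell was thus not the same for each gene. The 6 interstitial markers, all detected, stood in germ-like cells at 16.3 and 34.3 CPM against 6385 and 5425 in interstitial-like cells. Scaled by the share of each type's whole marker list, the other types would give 0.279 and 0.917 CPM of Lama2, against the 30.9 and 25.1 measured. By the same scaling Lamb1 (34.2 and 31.3 CPM, against 1.91 and 5.08) and Lamc1 (22.3 and 19.5, against 1.81 and 5.09) also lay above. So did Lama4 (6.65 and 6.97, against 0.864 and 1.34), Lamb2 (10.95 and 9.21, against 0.747 and 1.85), Hspg2 (7.74 and 6.37, against 1.72 and 3.69) and Lama1 (2.54 and 4.53, against 0.956 and 2.90). Nid1 (1.81 and 7.11, against 2.22 and 7.47) and Nid2 (0.0605 and 1.24, against 0.635 and 1.61) lay below that level. Lama5 lay above it in replicate 1 and below it in replicate 2. The part of other cells in these levels was not tested.

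**Figure D3:**
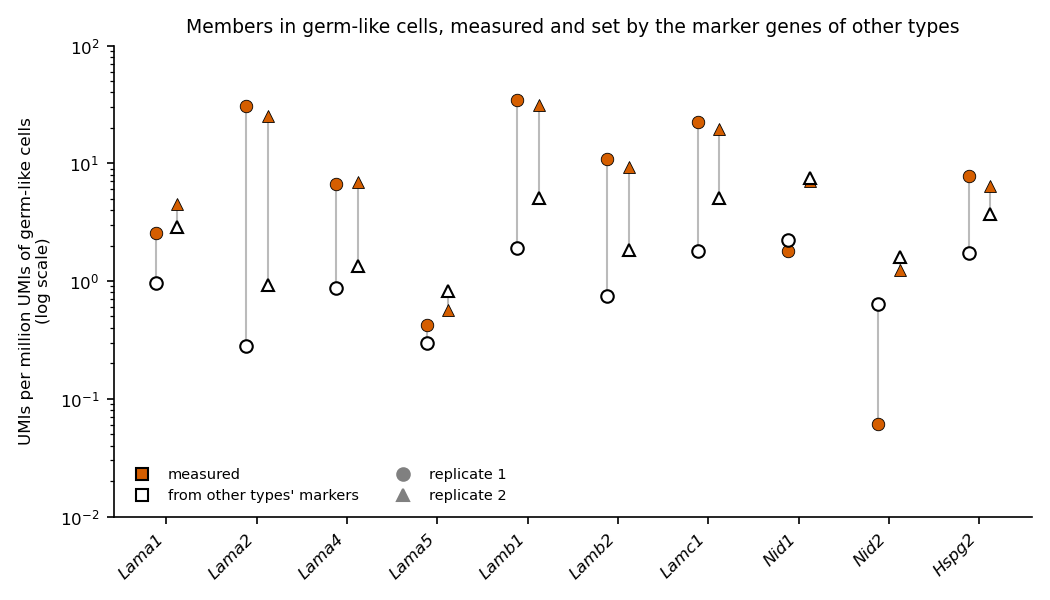
Measured level of each gene in germ-like cells (filled, y axis on a log scale, CPM) and the level that the other cell types would give if scaled by the share of their marker lists found in germ-like cells (open), circles replicate 1 and triangles replicate 2. Lama2 was measured at 30.9 and 25.1 against 0.279 and 0.917, and Nid1 at 1.81 and 7.11 against 2.22 and 7.47.

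Germ-like cells were the deepest, with medians of 77759 and 50018 UMIs, against 6526 and 4991 in interstitial-like and 9934.5 and 9996 in granulosa-like cells, so shares of cells with a UMI were also taken after thinning. A UMI of Lama2 was found in 73.1% and 48.7% of germ-like cells and in 6.28% and 2.65% after thinning, which left out 4 and 70 shallower cells. In interstitial-like cells the share was 46.9% and 44.2%, or 19.0% and 18.2% thinned. In granulosa-like cells, where Lama2 was near its lowest, the share was 0.572% and 2.59%, or 0.127% and 0 of 538 cells thinned, which allows a share of up to 0.558% of cells with a UMI at that depth. The call of Lama2 depends on the reference, since the log2 fold change was -0.77 (adjusted p = 0.120) against the sum of all other cells, of which interstitial-like cells are a large part. It was 2.35 (standard error 0.32, adjusted p = 3.24e-05) against the equally weighted types.

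The gene lists around the 10 genes were read in the same fits. Lamc3, a further gamma chain, was called higher in interstitial-like cells, at 5.25 and 5.03 CPM from 52 and 76 UMIs, and was at most 3.43 CPM elsewhere. Lama3 and Lamb3, with 99 and 63 UMIs in all cell types, had too few counts to be tested.

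Of 10 laminin receptors, 9 could be tested. Of all genes, 15.5%, 12.8%, 14.5%, 5.48%, 9.73% and 31.8% were called higher in granulosa-like, mesothelial-like, interstitial-like, perivascular-like, endothelial-like and germ-like cells. In the same order, 5.17%, 3.88%, 3.91%, 2.36%, 5.28% and 19.6% of all genes were called lower. Granulosa-like cells had 6 called higher and 1 lower, with a median of 2.62 (log2) over the list against 0.17 over all genes. Dag1, which encodes dystroglycan, rose by 3.31 there (adjusted p = 1.16e-06), Itga6, the alpha subunit of laminin-binding integrins, by 3.17 (adjusted p = 3.85e-07), and Sdc4, a syndecan, by 3.15 (adjusted p = 2.49e-05). Mesothelial-like cells had 4 higher, among them Sdc4 (3.97), Bcam, a receptor of the alpha5 chain (3.30, adjusted p = 1.83e-07), and Itga3, at 39.5 and 42.9 CPM and at 0 UMIs in perivascular-like cells. In perivascular-like cells Itga7, an integrin of muscle cells, stood at 147 and 92.3 CPM and was at most 13.7 CPM in any other type. Bcam (2.26) and Itgb1 (1.67) were also called higher, and Itga6 (-1.52) was called lower. Itga7 was called in endothelial-like cells as well, at 3.23 and 13.7 CPM from 3 and 4 UMIs, with Itga6 (1.92), Bcam (1.35) and Itgb1 (1.08), while Sdc2 (-4.19) and Sdc1 (-1.50) were called lower there. Interstitial-like cells had Sdc2 higher (2.50) and 3 lower, Bcam (-3.31), Itga6 (-3.48) and Itga7. In germ-like cells 7 of the 9 were lower, among them Sdc2 (-3.08), Sdc4 (-2.90) and Itgb1 (-2.69), with a list median of -2.69 against 0.30 over all genes, and Sdc1 and Itga3 were not called.

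**Figure D4:**
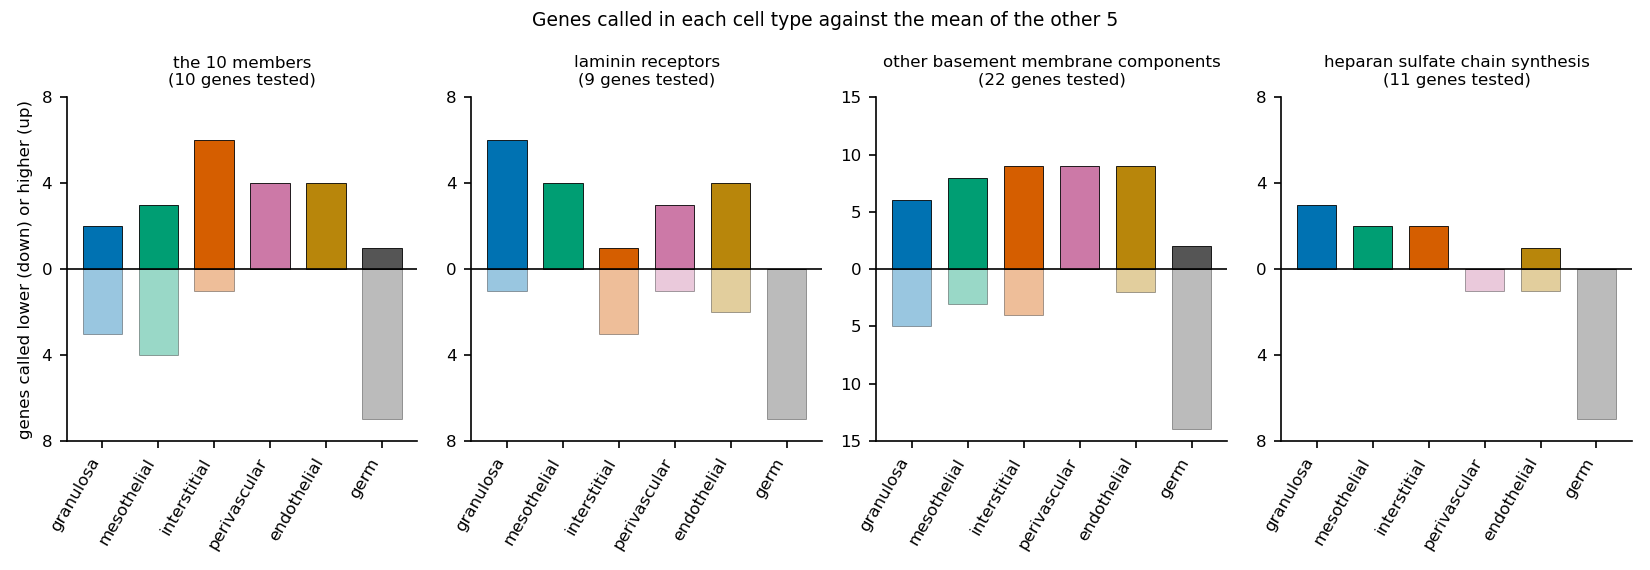
Number of genes called higher (bars upward) and lower (pale bars downward) in each cell type against the mean of the other 5 (y axis, genes; x axis, cell types), for the 10 genes and the 3 larger lists. Germ-like cells have 7 of 10, 7 of 9, 14 of 22 and 7 of 11 genes called lower, against 19.6% of all genes.

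Of 24 other basement membrane components, 22 could be tested. The number called was 6 higher and 5 lower in granulosa-like, 8 and 3 in mesothelial-like, 9 and 4 in interstitial-like, 9 and 0 in perivascular-like and 9 and 2 in endothelial-like cells. In these types 15.5%, 12.8%, 14.5%, 5.48% and 9.73% of all genes were called higher, and 5.17%, 3.88%, 3.91%, 2.36% and 5.28% lower. The list medians were 0.36, 0.37, 1.01, 0.82 and 0.02 (log2). For 9 of the 22 genes some type held 3 UMIs or fewer, and over the other 13 the medians were 0.10, -0.06, -0.46, 2.22 and 1.92, so that in mesothelial-like and interstitial-like cells the sign depends on those genes. Granulosa-like cells were led by Smoc1 (39.2 and 21.8 CPM), Fras1 (log2 3.98, adjusted p = 6.43e-06) and Fbln2 (412 and 251 UMIs), and mesothelial-like cells by Papln, Fbln2 (83 and 119 UMIs) and the type IV collagen chain Col4a6 (8.32 and 7.97 CPM). Interstitial-like cells were led by Smoc2 (20.9 and 17.5 CPM), Col4a4 (113 and 116 CPM) and Frem1 (53.0 and 54.8 CPM). Perivascular-like cells were led by Tinagl1 (log2 6.10, adjusted p = 1.47e-09), Col4a3, with 1 and 7 UMIs, and Frem2 (4.72). Endothelial-like cells were led by Col15a1 (4.92, adjusted p = 7.09e-07), Npnt (42.0 and 34.3 CPM) and Fbln2 (19.4 and 41.1 CPM). In germ-like cells 14 were lower, against 19.6% of all genes, with a list median of -2.56 (-4.22 over those 13). There 2 were higher, against 31.8% of all genes, the SPARC relatives Smoc2 (17.2 and 13.6 CPM) and Smoc1 (4.78 and 4.04 CPM). Scaled by their marker lists, the other types would give 0.0701 and 0.173 CPM of Smoc2 in germ-like cells, and 0.407 and 0.894 CPM of Smoc1.

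Of 11 enzymes that build heparan sulfate chains such as those of perlecan, all were tested. The shares of all genes called higher were 15.5% in granulosa-like, 12.8% in mesothelial-like, 14.5% in interstitial-like and 9.73% in endothelial-like cells. The calls were Hs6st2 (log2 4.03), Xylt1 (10.7 and 13.4 CPM) and Hs6st1 (52.4 and 48.0 CPM) in granulosa-like cells, Xylt1 and Hs6st1 in mesothelial-like cells, Hs6st2 (1.66) and Xylt2 (1.31) in interstitial-like cells and Ndst1 (24.7 and 20.6 CPM from 23 and 6 UMIs) in endothelial-like cells, where Hspg2 was highest. Germ-like cells had 7 lower, against 19.6% of all genes, with a list median of -1.15 (-1.09 over the 8 genes with more than 3 UMIs in each type). In the remaining types 1 was lower in perivascular-like (2.36% of all genes) and 1 in endothelial-like cells (5.28%).

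Granulosa-like cells were also split by Amh, a product of the granulosa cells of growing follicles, into 636 and 102 cells with a UMI of Amh and 938 and 439 without. Nid1 stood at 80.8 and 79.0 CPM in cells with Amh and at 131 and 141 in cells without. With the count filter, at full depth and without the library as a block, Nid1 was the only one of the 10 genes with an adjusted p under 0.05. Its log2 difference was -0.76 (standard error 0.15, adjusted p = 0.0444, against 4.06% of 12369 genes in either direction and 1.88% that were lower). The adjusted p of Nid1 ranged from 1.26e-04 to 0.327 over the alternatives, being highest after thinning. There Nid1 was at -0.98 and Lamc1 at -1.135 (log2). Amh was then read from the thinned counts, with 235 and 43 cells positive and 1336 and 495 negative. Without the count filter Lamb1, Lamc1, Nid2 and Lama5 were also under 0.05 (adjusted p from 3.06e-04 to 0.0289). Lamc1 stood at 58.5 and 49.0 against 89.2 and 93.4 CPM (log2 -0.75, adjusted p = 0.0518) and Lamb1 at 53.3 and 44.1 against 74.5 and 76.4 (log2 -0.62, adjusted p = 0.0817). Lama1 differed in the other direction, at 85.2 and 96.2 against 67.9 and 54.5 CPM (log2 0.56, adjusted p = 0.130). By edgeR and by DESeq2, 0 of the 10 genes were called at more than 2-fold in either direction (1.94% of all genes higher and 1.67% lower), and at an unadjusted p under 0.05 and any size 1 was higher and 5 were lower. The cells with and without Amh come from the same pups, and with the library as a block the adjusted p was 3.04e-04 for Lamc1, 0.00256 for Lamb1 and 0.00768 for Lama1, and 2 genes were called lower, Nid2 (log2 -1.31, adjusted p = 0.00228) and Lama5 (log2 -1.74, adjusted p = 0.00408). Among the other basement membrane components, Col4a1 (-1.19, adjusted p = 0.0172), Col4a2 (-1.13) and Col4a5 (-1.17) were lower in cells with Amh. Cells with Amh were deeper, with medians of 11878 and 12884 against 8792 and 9408 UMIs, and the part of depth in these differences was not tested beyond the thinning.

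**Figure D5:**
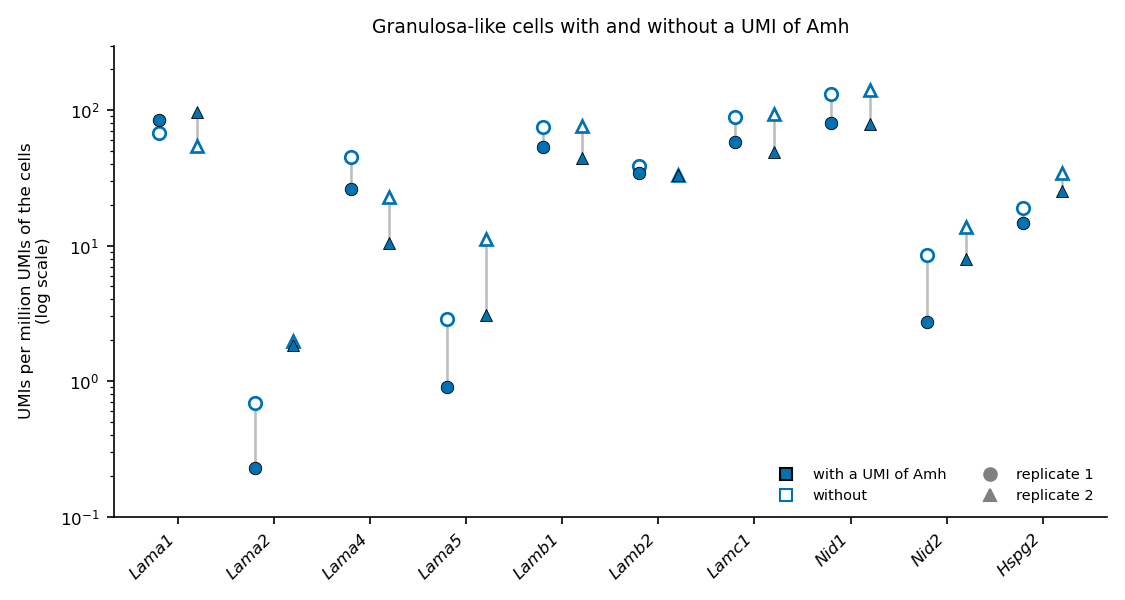
Level of each gene (y axis on a log scale, CPM) in granulosa-like cells with a UMI of Amh (filled) and without (open), circles replicate 1 and triangles replicate 2. Nid1 lies at 80.8 and 79.0 with Amh and at 131 and 141 without, and Lama1 lies at 85.2 and 96.2 with and 67.9 and 54.5 without.

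Over the 12 sums of 6 types in 2 libraries, Nid1 and Nid2 had the most similar pattern among the 10 genes (Pearson's r of log2 CPM 0.91), followed by Lamc1 and Hspg2 (0.84), and Lama2 and Lamb2 were the most opposed (-0.83). Cell types of a library share their pups and their droplet run, and these values are descriptions. Among all other genes, those closest to Lama1 were Cntn4, Usp29 and Ppp1r26 (r from 0.985 to 0.986), and those closest to Lama2 were Cept1, Hsd11b1 and Lrrc17 (0.917 to 0.931). Zfp800 and Lrrfip1 were close to Lama4 (0.938 and 0.935), and Lama5 was followed most closely by Gata3, Mapkbp1 and Rbm15b (0.905 to 0.938), Lamb1 by Cd302, Mylk and Nrk (0.970 to 0.973) and Lamb2 by Nod1, Fam84b and Itga3 (0.948 to 0.956). For Lamc1 these were Kdm6b, Ctnnb1 and Ttyh3 (0.972 to 0.980), for Nid1 Pls3, Eva1b and Itm2c (0.972 to 0.980), for Nid2 Smim15, Selenom and A230050P20Rik (0.973 to 0.988) and for Hspg2 E2f7, Cchcr1 and Utrn (0.933 to 0.947).

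The genes lie apart in the genome (GRCm38). Lama1 (ENSMUSG00000032796) spans 67697259 to 67822647 of chromosome 17, and Lama2 (ENSMUSG00000019899) and Lama4 (ENSMUSG00000019846) span 26980036 to 27619758 and 38965515 to 39110188 of chromosome 10. Lama5 (ENSMUSG00000015647) spans 180176373 to 180225859 of chromosome 2, Lamb1 (ENSMUSG00000002900) 31265234 to 31329644 of chromosome 12, Lamb2 (ENSMUSG00000052911) 108479736 to 108490530 of chromosome 9 and Lamc1 (ENSMUSG00000026478) 153218922 to 153332786 of chromosome 1. Nid1 (ENSMUSG00000005397) spans 13437551 to 13512269 of chromosome 13, Nid2 (ENSMUSG00000021806) 19751265 to 19811787 of chromosome 14 and Hspg2 (ENSMUSG00000028763) 137468769 to 137570630 of chromosome 4. All are protein-coding.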

How the data were processed

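The counts the authors deposited are whole UMIs of each gene in each cell. They come from Cell Ranger 3.0.2 and GRCm38 per the labels' processing notes, are limited to barcodes called as cells and are not normalized. The labels name version 2 of the kit and the methods version 3. Cells under 500 genes or over 10% mitochondrial counts were left out. Doublets were scored with Scrublet in scanpy 1.11.5, and replicate 1's automatic threshold was applied to both libraries after the scores were seen, since that of replicate 2 marked 2 cells, removing 96 and 93. Cells were assigned by UMIs of the marker genes per 10000. Any cells past both the granulosa and mesothelial limits were kept as mesothelial-like, and any past both the interstitial and perivascular limits as perivascular-like. Cells positive for several types in any other way were left out. Raw counts were summed per type and library and tested by the quasi-likelihood test of edgeR 4.0.16 (R 4.3.3), after filterByExpr and TMM scaling and with Benjamini-Hochberg adjustment over all genes tested, with cell type as the only term and 14424 genes. Binomial intervals cover counting error only.

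On simulated data the test recovered between 66% (perivascular-like) and 97% (interstitial-like) of genes raised 4-fold in a cell type. The named genes are the 10 members and, per list and cell type, up to 3 called genes of largest fold change. Where a type held 3 UMIs or fewer, fitted fold changes depend on the prior count, and levels are given instead. The exceptions are Lama2 and Lama5 in germ-like cells and values against the sum of all other cells. Members and lists were chosen with earlier results of these data known. Cell types of a library come from the same pups, so the libraries pair the sums, and their deviations correlated by 0.010 to 0.277 over 14424 genes. Alternatives were other scalings (library totals, DESeq2 size factors), DESeq2 1.42.0, no count filter, a library block, thinning to 2000 UMIs, stricter or looser limits, clusters in place of markers, no doublet removal, a summed reference and each library alone. Promoter windows are from RefSeq. Levels scaled by whole marker lists replaced a narrower set of markers after the data were seen, and are no upper limits. Some items are not reported here.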

Additional observations from a re-analysis of the deposited data

Results flagged for a closer look

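Immune-like cells (Ptprc, Tyrobp, Fcer1g; 31 and 50 cells) entered no comparison. Over their 535143 UMIs, 3 of the 10 genes had more than the 3 UMIs that a count of 0 allows, a level of 5.61 CPM. Lamb2 had 6 UMIs (5 in replicate 1 and 1 in replicate 2), Lamc1 had 7 (5 and 2) and Nid2 had 6 (4 and 2). In replicates 1 and 2 these are 21.5 and 3.31 CPM of Lamb2, 21.5 and 6.62 of Lamc1 and 17.2 and 6.62 of Nid2, and no gene was above 3 UMIs in replicate 2. Lama4, Lama5 and Lamb1 had 0 UMIs in the immune-like cells of both libraries.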

How the results depend on the processing

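Of the 35 calls of the 10 genes in the 6 cell types, 23 kept direction and call under all 13 alternatives and 12 lost or changed it under at least 1. Thinning and the summed reference each changed 7 of the 35. Against the sum of all other cells, Lama1 in interstitial-like cells was at -0.65 and Lama2 in germ-like cells at -0.77 (log2), 0 genes were called higher in germ-like and 2 lower in endothelial-like cells. The genes called higher in granulosa-like cells numbered 1 with DESeq2 size factors, stricter limits, clusters or no doublet removal. Genes called lower in mesothelial-like cells numbered 2 after thinning or with looser limits. In interstitial-like cells 0 were lower after thinning, and 2 with library totals, DESeq2, no count filter, stricter or looser limits, clusters or no doublet removal. Without the count filter 1 was lower in perivascular-like cells, 1 in endothelial-like cells and 2 in the split by Amh, and DESeq2 called 1 lower in endothelial-like cells. With the library as a block, which follows the pairing, 2 were lower in interstitial-like cells and 2 in the split by Amh, and no call was lost.

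With a library alone, counts by fold change only ranged from 2 to 4 higher and 2 to 3 lower in granulosa-like cells, and from 3 to 4 higher and 3 to 3 lower in mesothelial-like cells. In interstitial-like cells 2 were lower with either library. In perivascular-like cells 3 to 4 were lower, in endothelial-like cells 2 to 3, and in the split by Amh 2 to 3. Hspg2 in granulosa-like cells was at -0.89 without replicate 1, Lamb1 and Nid1 in mesothelial-like cells were at -0.97 without replicate 1 and -0.75 without replicate 2, and Lamb2 in germ-like cells was at -0.97 without replicate 1. The causes of these changes were not tested. Among the types compared, the 86 perivascular-like and 82 endothelial-like cells had the fewest UMIs in all. Replicates 1 and 2 held 211056 and 216754 in perivascular-like and 929650 and 291818 in endothelial-like cells. On simulated data these types also had the lowest recovery of genes raised 4-fold, at 66% and 79%. Lowered genes were not simulated. The part of depth in the changed calls was not tested.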

Other observations

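Cells outside the 6 types carried the genes too. The 135 and 256 cells that passed no marker limit had 49.5 and 40.4 CPM of Lama1, 87.1 and 91.8 of Nid1 and 68.3 and 75.8 of Lamc1, with 5.94 and 8.42 of Lama2. The 69 and 203 cells left out because they passed the limits of several types had 47.0 and 21.3 CPM of Lama1 together with 53.3 and 54.7 of Lama2.

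A UMI each of an alpha, a beta and a gamma chain was found in the same cell in 52.5% of the 59 and 43.5% of the 23 endothelial-like cells, in 26.1% and 29.0% of granulosa-like and in 19.0% and 15.1% of interstitial-like cells. In mesothelial-like cells it was 33.6% and 29.2%, in germ-like cells 59.0% and 33.0% and in perivascular-like cells 14.3% and 6.82%. These shares depend on depth. Endothelial-like cells had medians of 13339 and 6205 UMIs and mesothelial-like cells of 14276 and 11846, and germ-like cells were the deepest. After thinning to 2000 UMIs it was 0.573% and 0.743% in granulosa-like and 1.19% and 1.07% in interstitial-like cells. In mesothelial-like cells it was then 0.658% and 0.442%. Endothelial-like cells then had it in 0 of 59 and 1 of 23 cells, perivascular-like cells in 1 of 42 and 1 of 43, and germ-like cells in 0 of 223 and 0 of 567.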
